A study of Homo sapiens with 12 samples.

Results

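The clustered protocadherins are cell-surface adhesion proteins that neurons use to tell their own branches from those of other cells. They were taken as the protein-coding genes on chromosome 5 whose GENCODE symbol starts with PCDHA, PCDHB or PCDHG followed by a digit, A, B or C. The rule gave 53 of the 20046 protein-coding genes, among 62700 annotated genes in all. The alpha cluster held 15 genes at chr5:140786136-141012347, the beta cluster 16 at chr5:141051374-141249365 and the gamma cluster 22 at chr5:141330514-141512977 (GRCh38). All members lie on the forward strand.

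In neurons, each cell transcribes a small, largely random set of these genes from promoters that stand one behind the other. An alpha or gamma transcript joins 1 member's own large first exon to constant exons that the whole cluster shares, whereas a beta gene is a single coding exon of its own. The architectural protein CTCF binds the promoters, and the ring-shaped complex cohesin brings them to distant enhancers. SCC4, the product of MAU2, works with NIPBL to load cohesin onto DNA.

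The study developed LAST-seq, a single-cell assay that transcribes RNA directly in vitro and counts 3′ ends by unique molecular identifiers (UMIs), short random tags that mark each captured molecule once. Human embryonic kidney HEK293T cells were measured by LAST-seq and CEL-seq2, an earlier assay that amplifies by in vitro transcription, as 2 libraries of 10 single cells each. LAST-seq was also run on 15-pg aliquots of total RNA and on single-cell lysate, CEL-seq2 on lysate, and SMART-seq, which counts reads along the transcript, on single cells and on 2 sets of lysate wells. The haploid line eHAP1, derived from a leukaemia, was measured by LAST-seq as WT cells (73 in batch 1 and 75 in batch 2) and SCC4 KO cells (77 and 76), sorted as live G1-phase cells. The cells of each genotype form 1 deposited sample, and the edited cells had been grown up from single cells. Genotype and clone cannot be told apart, so no p-value between genotypes is the main result, and intervals are exact 95% intervals for counting error only.

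The eHAP1 batches held between 6434247 and 12301326 UMIs and the HEK293T UMI libraries between 798047 and 1554129. The eHAP1 libraries used 1 set of well barcodes, of which 70 to 75 recurred between any pair of batches. None of the blood markers PTPRC, HBG1, HBG2 and SPI1 was listed in an eHAP1 table, and CD34 was listed in that of SCC4 KO, at 7 and 11 UMIs. The neuronal markers SNAP25, SYT1, RBFOX3, STMN2, ELAVL4 and GAP43 summed to between 0.894 and 5.05 CPM (UMIs per 1000000 UMIs of the library) in eHAP1 and to at most 16.7 in HEK293T. HEK293T cells of either assay held NEFL and HOXA9, 2 of their 5 marker genes, whereas PAX2 and LHX1 had between 0 and 12 UMIs in each single-cell library. In eHAP1 the 5 genes (PAX2, LHX1, NEFL, NEFM and HOXA9) summed to 49.8 and 49.1 CPM in the WT batches (3 of 5 listed) and to 119 and 112 in SCC4 KO (5 of 5). The part of these differences in the values of the members was not tested.

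The eHAP1 tables have a pair of properties that bear on the values of the members. First, they list almost no gene with UMIs in a single batch (2.86% of the WT and 0.588% of the SCC4 KO genes), while 14.1% to 22.2% of the genes in the HEK293T UMI tables have just 1 UMI. A member missing from an eHAP1 table may have had UMIs in 1 of the batches, so it was not compared on its own between genotypes. In sums over members and in shares of cells it adds nothing, as a 0 would. Second, for the 1042 genes with at least 1000 UMIs in both WT batches, the median absolute log2 difference between batches was 0.00965, under the 0.0289 that counting error alone gives. For LAST-seq libraries of HEK293T it was 0.118 over 154 genes. The WT batches lay closer together than counting error alone would place separate libraries, and so did the SCC4 KO batches (0.00824 against 0.0287 over 905 genes), so they were not read as independent replicates. The methods name a batch correction for these cells, and whether the deposited UMIs precede it is not stated. At the level of the members the opposite held. Of the 2463 WT genes with 20 to 49 UMIs, 48.6% differed more than 2-fold between batches, and their squared deviation averaged 7.47 times that of counting error. The counting intervals below are therefore too narrow.

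The exon structure limits what a 3′-end assay can count. In the annotation, the 15 alpha members share 2869 exonic bases in 3 exons, the last of them chr5:141009627-141012347 with 2721 bases. The 22 gamma members share 2177 bases, the last exon being chr5:141510947-141512975 with 2029 bases. Every alpha and gamma member has at least 1 transcript ending in an exon that its whole cluster shares, and 23 of the 27 such alpha and 24 of the 28 such gamma transcripts hold no base of their own in the last 500. A UMI from such an end cannot be given to 1 member by its bases. Exonic bases found in no other gene of the strand make up a median of 53.4% of an alpha member, 56.2% of a gamma member and 100% of a beta member. How the counting treated such reads is not stated. No UMI table held a UMI for 10 of 15 alpha and 16 of 22 gamma members. Either no such read was captured, or it was not given to every member that it overlaps. An annotated transcript that ends before the shared exons, in bases of its own, exists for 13 alpha and 21 gamma members. Levels of alpha and gamma members are therefore not levels of their full transcripts.

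The own ends of the members with the most UMIs are shown for this reason. In each, capitals mark the polyadenylation signal AATAAA, found in the last 50 bases of a transcript that ends in bases of its own, as for 20 members in all (forward strand, GRCh38).
PCDHA5 (chr5:140825818-140825847): ttagattaaaaaAATAAAtataccatgata
PCDHB14 (chr5:141227729-141227758): tgacatttaaacAATAAAatcctgaaaaga
PCDHGA10 (chr5:141417416-141417445): gtaaattcagtaAATAAAaagatatgatag
The signal stood 16 bases before the transcript end in PCDHA5, 13 in PCDHB14 and 15 in PCDHGA10. An oligo-dT primer of reverse transcription can also start inside a transcript where the RNA holds a run of A. The LAST-seq primer anneals to A but is blocked at its 3′ end, and the nicked RNA itself is extended. Whether a run of A inside an RNA is captured in this way was not tested. Runs of at least 10 A in members' own exons are given for 3 members, with the run in capitals.
PCDHA9 (chr5:140854154-140854183): tgtctcAAAAAAAAAAAAAAAAAgagtagt
PCDHB1 (chr5:141057535-141057564): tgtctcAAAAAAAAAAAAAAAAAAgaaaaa
PCDHGA10 (chr5:141415633-141415662): acttttgttAAAAAAAAAAAgattggtttt
Such a run was found in 7 of the 21 members with a UMI in any UMI table and in 1 of the 32 without. The 7 took 155 of the 362 member UMIs. PCDHA5 and PCDHB14, with 83 and 43 UMIs, hold no such run. Members with UMIs also had more bases of their own, a median of 4078 against 3076: 12 of the 18 members with at least 4000 own bases had a UMI, and 3 of the 19 with fewer than 3000. PCDHA4, with 10557 own bases, had none. The part of the runs and of the length in the UMIs was not tested. In 9 of the 21 members, PCDHA5, PCDHB1 and PCDHB5 among them, a gene is annotated on the opposite strand of an exon, and the sources do not say whether counting used the strand.

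**Figure D1:**
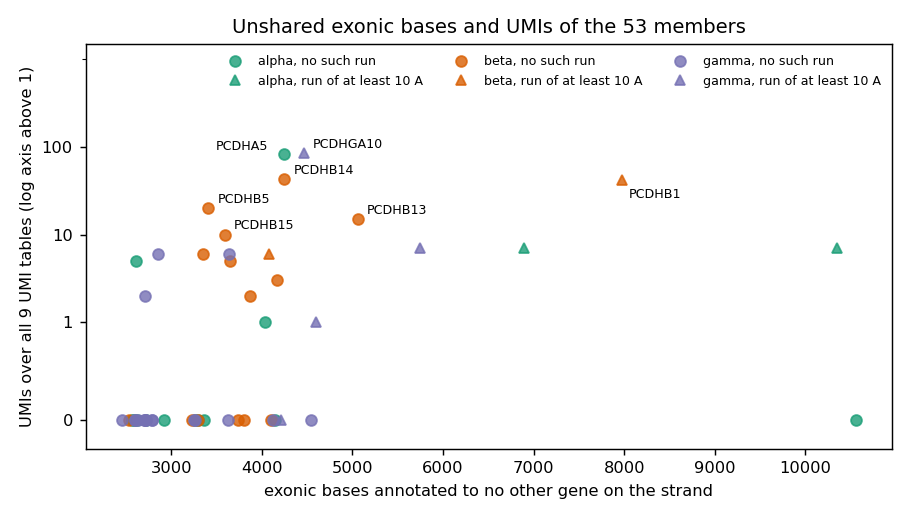
Each point is 1 of the 53 members: exonic bases found in no other gene of the strand (x axis) against UMIs summed over all 9 UMI tables (y axis, log above 1), with triangles for members that hold a run of at least 10 A. The 32 members at 0 span 2459 to 10557 own bases, and PCDHA5 and PCDHGA10 lead with 83 and 85 UMIs.

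The promoters of the beta genes held a common string of letters. RefSeq promoters (GRCh38.p14, 250 bases before to 50 after a start) were at hand for 47 of the 53 members, with 52 promoters. GGCGCT, a string chosen after the beta promoters had been seen, was present on either strand in 13 of 14 beta promoters, all in the forward sense, in 1 of 13 alpha and in 11 of 25 gamma promoters. It was present in 21.7% of all 35116 promoters. The beta windows with UMIs in any UMI table are printed first, by falling number of UMIs, with GGCGCT in capitals.
PCDHB14 (chr5:141223265-141223294): gagacacatggtGGCGCTacaggataagac
PCDHB5 (chr5:141135181-141135210): aggacgcctggtGGCGCTgcaggctaagag
PCDHB13 (chr5:141213867-141213896): aggacgcgtggtGGCGCTgcaggataagaa
PCDHB15 (chr5:141245316-141245345): acaacgcatggtGGCGCTgcaggctaaggc
PCDHB3 (chr5:141100395-141100424): cgaacgcatggtGGCGCTgttgactaagaa
PCDHB9 (chr5:141187076-141187105): aagccacaaggtGGCGCTgcagactgaaga
PCDHB16 (chr5:141182312-141182341): agaacgcgtggtGGCGCTgcaggttaagat
PCDHB12 (chr5:141208645-141208674): gagacgcgtggtGGCGCTgcaggataatat
The beta windows without a UMI hold the same letters.
PCDHB2 (chr5:141094546-141094575): gagacgcggggtGGCGCTgcagccttagaa
PCDHB4 (chr5:141121725-141121754): aagacgcagggtGGCGCTgcaggctaagtt
PCDHB7 (chr5:141172568-141172597): aaaacgcaaggtGGCGCTgctggctaaaaa
PCDHB8 (chr5:141177779-141177808): aggacccgtggtGGCGCTgcaggataagaa
PCDHB10 (chr5:141192301-141192330): aggccacacggtGGCGCTgcaggctaaaga
In 11 of the 13 windows the string starts between 40 and 81 bases before the annotated start. It lies 13 before it in PCDHB5 and just behind it in PCDHB8. Of these 13 genes 8 had a UMI and 5 had none, and PCDHB1, whose promoter lacks the string, had 42 UMIs. The shorter CGCT, which overlaps GGCGCT, was found in 51 of 52 member promoters against 70.0% of all promoters. A spaced core of the CTCF motif, searched on both strands, was found in 1 of 52 (PCDHB9) against 10.6% of all promoters. The search took exact letters and no variants of the motif. A match describes letters and is no evidence of binding, and a missing match is no evidence against a site.

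Which members were on was asked in every UMI table. At least 1 UMI was found for 21 of the 53 members: 5 of 15 alpha, 10 of 16 beta and 6 of 22 gamma genes. No UMI table listed one for PCDHA1, PCDHA2, PCDHA4, PCDHA6, PCDHA7, PCDHA11, PCDHA12, PCDHA13, PCDHAC1, PCDHAC2, PCDHB2, PCDHB4, PCDHB6, PCDHB7, PCDHB8, PCDHB10, PCDHGA1, PCDHGA2, PCDHGA3, PCDHGB1, PCDHGA4, PCDHGB2, PCDHGA5, PCDHGB3, PCDHGA7, PCDHGB4, PCDHGA8, PCDHGA9, PCDHGB7, PCDHGA12, PCDHGC3 and PCDHGC4. Among these are 4 of the 5 C-type genes at the cluster ends, which many neurons are known to share, while PCDHGC5 had 6 UMIs in SCC4 KO cells. PCDHA5, PCDHB1 and PCDHGA10 were the 3 members seen in WT and SCC4 KO cells and in both CEL-seq2 single-cell libraries of HEK293T. PCDHB14, PCDHB5, PCDHB13 and PCDHB15 were seen in WT eHAP1 alone. A member counted as on if it averaged 0.1 UMI or more per cell, the minimum that the study set for its test of expression between genotypes. By this cut 6 were on in WT cells (PCDHA5, PCDHB1, PCDHB5, PCDHB13, PCDHB14 and PCDHGA10) and 1 in SCC4 KO cells (PCDHA5). PCDHB5, PCDHB13 and PCDHB14 are not listed in SCC4 KO, which is no measured 0, so these counts are no comparison between genotypes. With the cut at 0.05 UMI, 7 were on in WT and 3 in SCC4 KO. In batches 1 and 2 alone, 3 and 5 passed 0.1 UMI in WT and 1 and 0 in SCC4 KO. The shares of all genes with a UMI or past the cut were not counted. The counts above therefore describe the members alone and set them apart from no other genes.

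**Figure D2:**
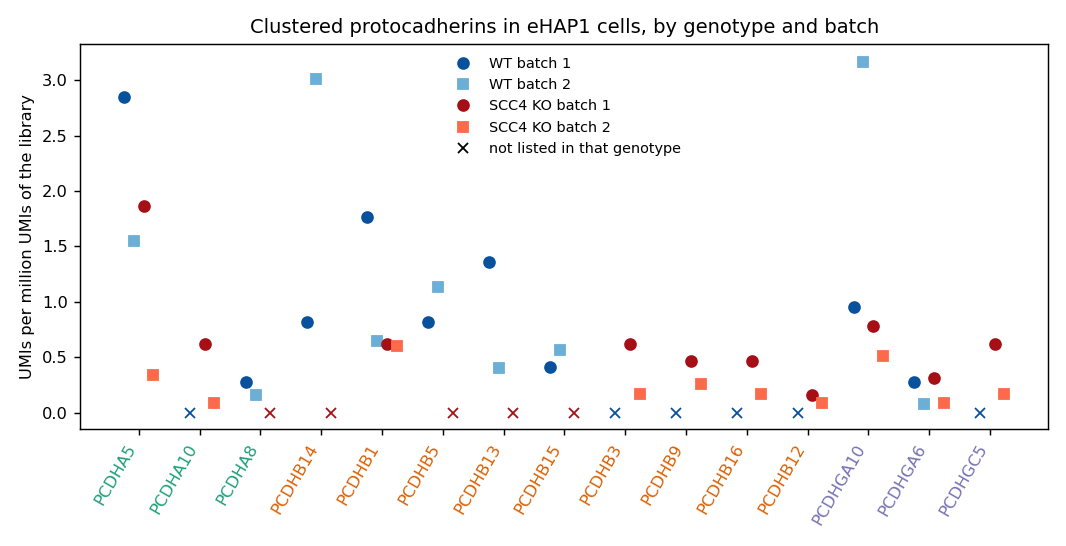
CPM (y axis) for the 15 members listed in an eHAP1 table (x axis, colours of the names for alpha, beta and gamma), as circles for batch 1 and squares for batch 2, in blue for WT and red for SCC4 KO. A cross at the bottom marks a member that the table of that genotype does not list, which is no measured 0. PCDHGA10 and PCDHB14 stand highest, in WT batch 2, at 3.17 and 3.01.

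WT and SCC4 KO cells were compared to ask what losing the cohesin loader does to these genes. MAU2 itself had 44.2 and 41.2 CPM in WT batches 1 and 2 and 9.17 and 14.5 in SCC4 KO, a ratio of 0.207 (interval 0.154 to 0.274) and 0.351 (0.293 to 0.419). These 3′-end UMIs need not lie at the edited site, so they show less MAU2 RNA and do not prove the genotype. Member UMIs summed to 70 and 132 in WT and to 42 and 29 in SCC4 KO, and 92 of those in WT belong to members that SCC4 KO does not list. In CPM, that is 9.50 and 10.7 against 6.53 and 2.48. Both SCC4 KO batches lay below both WT batches, but the SCC4 KO batches differed from each other by a ratio of 0.380 (0.229 to 0.625), about as much as the genotypes did over both batches, 0.382 (0.287 to 0.503).

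In the alpha cluster, PCDHA5 (ENSG00000204965, chr5:140821604-141012347) gave nearly all UMIs. It had 21 and 19 UMIs in WT and 12 and 4 in SCC4 KO, or 2.85 and 1.55 CPM against 1.87 and 0.343. The genotypes overlapped, since SCC4 KO batch 1 lay above WT batch 2. The ratio of SCC4 KO to WT was 0.655 (0.294 to 1.39) in batch 1 and 0.222 (0.0549 to 0.667) in batch 2. PCDHA8 was listed in WT alone, with 2 UMIs in each batch, and PCDHA10 in SCC4 KO alone, with 4 and 1. The cluster sum came to 3.12 and 1.71 CPM in WT and 2.49 and 0.428 in SCC4 KO, which overlap. Without PCDHA5 the ratio of the sums over both batches turned from 0.518 to 1.36.

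The beta cluster held the clearest contrast in level, yet most of it rested on which members were listed. PCDHB14 (ENSG00000120327, chr5:141223343-141227759) had 6 and 37 UMIs in WT, 0.814 and 3.01 CPM, and was not listed in SCC4 KO. At the WT levels, SCC4 KO would have given 5.24 UMIs in batch 1 and 35.1 in batch 2. These figures rest on WT batches that differed by a ratio of 3.7 (1.55 to 10.7). Not being listed is no measured 0, so they are no comparison between genotypes. PCDHB5 had 6 and 14 UMIs, PCDHB13 had 10 and 5 and PCDHB15 had 3 and 7 in WT, and none of them was listed in SCC4 KO either. PCDHB1 (ENSG00000171815, chr5:141051374-141059346), listed in both, had 13 and 8 UMIs in WT against 4 and 7 in SCC4 KO. In CPM this was 1.76 and 0.650 against 0.622 and 0.599, so WT batch 2 lay close to the SCC4 KO batches and only WT batch 1 stood apart. PCDHB3, PCDHB9, PCDHB16 and PCDHB12 were listed in SCC4 KO alone, with 6, 6, 5 and 2 UMIs over both batches. The beta sum, in which unlisted members add nothing, was 5.16 and 5.77 CPM in WT and 2.33 and 1.28 in SCC4 KO, without overlap, a ratio of 0.299 (0.193 to 0.451). Without PCDHB14 it was 0.494, and over PCDHB1, the 1 beta member listed in both, 0.569.

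In the gamma cluster, PCDHGA10 (ENSG00000253846, chr5:141412987-141512975) had 7 and 39 UMIs in WT and 5 and 6 in SCC4 KO, or 0.950 and 3.17 against 0.777 and 0.514 CPM. WT batch 2 alone was high. The ratio to WT was 0.818 (0.205 to 2.995) in batch 1 and 0.162 (0.0561 to 0.386) in batch 2, whereas WT batch 2 exceeded WT batch 1 by 3.34 (1.48 to 8.85). PCDHGA6 had 2 and 1 UMIs in both genotypes. PCDHGC5 was listed in SCC4 KO alone, with 4 and 2 UMIs. The gamma sum was 1.22 and 3.25 CPM in WT and 1.71 and 0.771 in SCC4 KO, which overlap, and the ratio was above 1 in batch 1 (1.40, 0.528 to 3.82) and below it in batch 2 (0.237, 0.101 to 0.496).

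**Figure D3:**
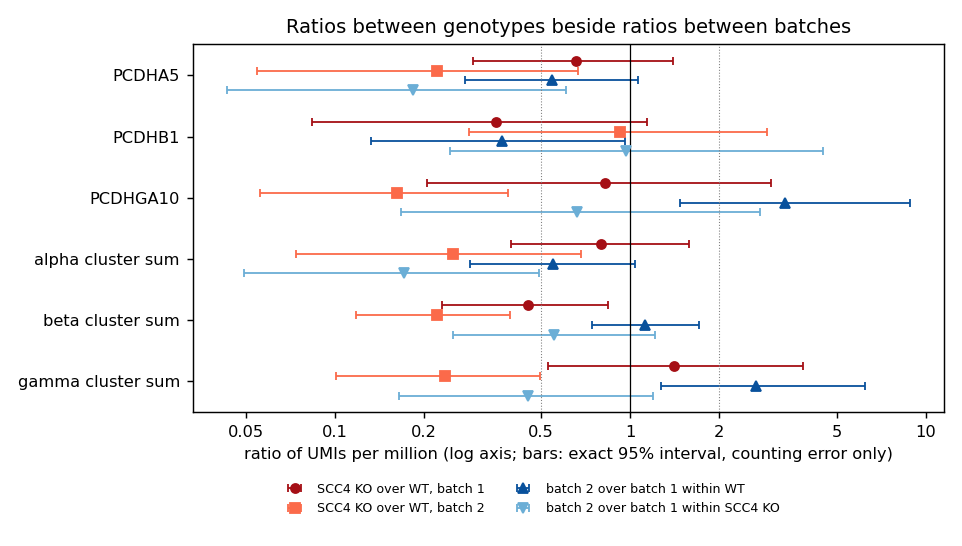
Ratios of CPM on a log axis, with bars for the exact 95% interval of counting error, for the 3 members tested between genotypes and for the 3 cluster sums. Red points compare SCC4 KO with WT in batch 1 and batch 2, and blue points compare batch 2 with batch 1 within a genotype. For PCDHGA10 the WT batches differ by 3.34, as far from 1 as most ratios between genotypes.

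A gene was called where SCC4 KO and WT differed more than 2-fold in the same direction in both batches, with 0.5 UMI added. It was tested where both tables listed it and it averaged 0.1 UMI or more over all eHAP1 cells. Of the members, 3 could be tested (PCDHA5, PCDHB1 and PCDHGA10) and 0 were called, against 9.08% of all 15206 genes tested, 3.86% lower and 5.22% higher in SCC4 KO. The median log2 difference of the 3 was -0.59 in batch 1 and -2.04 in batch 2, beside -0.00026 and 0.12 over all genes. Of the 3, PCDHA5 alone averaged 0.1 UMI or more in SCC4 KO cells. PCDHB1 and PCDHGA10 passed the filter through their WT UMIs, which favours a negative median. No shift of the members is read from it. In batch 1 alone PCDHB1 was past 2-fold lower, as were 13.1% of all genes, and in batch 2 alone PCDHA5 and PCDHGA10 were, as were 8.14%. Between the WT batches PCDHB1 and PCDHGA10 differed more than 2-fold, as did 17.1% of all genes, and between the SCC4 KO batches PCDHA5 did, as did 15.5%. The edgeR quasi-likelihood test on the 4 sums called 0 of the 3 members and 27.4% of all genes without the batch as a block, and 0 and 29.9% with it. DESeq2 gave an adjusted p for 2 of the 3, PCDHA5 and PCDHGA10, and called 0 of them and 21.5% of all genes. None of the 3 passed an unadjusted p of 0.05 in these fits, and the lowest Benjamini-Hochberg adjusted p was 0.196, for PCDHGA10 by edgeR without the block. These fits take the batches as replicates, which the agreement of high genes puts in doubt.

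Listing in 1 genotype was common among low genes. Of the 15 members in either table, WT alone listed 5 and SCC4 KO alone 6, next to 13.2% and 9.93% of all 23930 genes in either. Both listed 4 members. The 5 had 92 UMIs in WT and the 6 had 30 in SCC4 KO. Of the 2463 genes with 20 to 49 UMIs in WT, 10.7% were not listed in SCC4 KO. This level held 5 members, and PCDHB14 and PCDHB5 were the 2 not listed. Of the 1949 genes with 10 to 19 UMIs in WT, 19.3% were not listed, among them PCDHB13 and PCDHB15. Of the 4468 genes with at least 2 and under 10 UMIs in WT, 47.9% were not listed in SCC4 KO. The same held for 1 of the 2 members at that level. Of the 4138 genes at that level in SCC4 KO, 42.9% were not listed in WT, and 6 of the 7 members were not.

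The genes around the members are given for scale. Of 38 protein-coding neighbours within 1 Mb, 26 were tested and 0 called, and the deacetylase gene HDAC3 behind the gamma cluster kept to between 59.3 and 64.9 CPM in all batches. None of the 7 pseudogenes of the clusters was listed. Of 16 regulators, all tested, 2 were lower in both batches, MAU2 and SETDB1. SETDB1, a histone methyltransferase known to act on the clusters in mouse neurons, had 38.8 and 37.3 CPM in WT and 13.7 and 15.0 in SCC4 KO. CTCF had between 61.3 and 65.9 in all batches. Of 11 protocadherin genes outside the clusters, 6 were tested and 1 called. PCDH9 rose from 36.2 and 33.5 CPM in WT to 133 and 129 in SCC4 KO, so it exceeded the sum of all 53 clustered members in each batch.

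Choice per cell was asked from the number of members seen in single eHAP1 cells. In WT cells, 41 of 73 (56.2%, 44.1% to 67.8%) had a member UMI in batch 1 and 58 of 75 (77.3%, 66.2% to 86.2%) in batch 2. In SCC4 KO cells the shares were 30 of 77 (39.0%, 28.1% to 50.8%) and 24 of 76 (31.6%, 21.4% to 43.3%). Both SCC4 KO batches lay below both WT batches. Members not listed in SCC4 KO add nothing to its shares, among them PCDHB14, seen in 30 WT cells. Not being listed is no measured 0, so this order is no comparison between genotypes. Shares over the members listed in both genotypes were not counted. With each cell thinned to 50000 UMIs the shares were 36.1% and 48.0% in WT and 25.0% and 13.2% in SCC4 KO, in the same order, after 3 WT cells and 1 SCC4 KO cell with fewer UMIs were left out. In HEK293T by LAST-seq, 1 of 10 cells of either library had a member UMI (10.0%, 0.253% to 44.5%), and 0 of 10 did after thinning. Cells of 1 library share its handling, so these intervals describe the cells of that library and hold no spread between libraries.

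**Figure D4:**
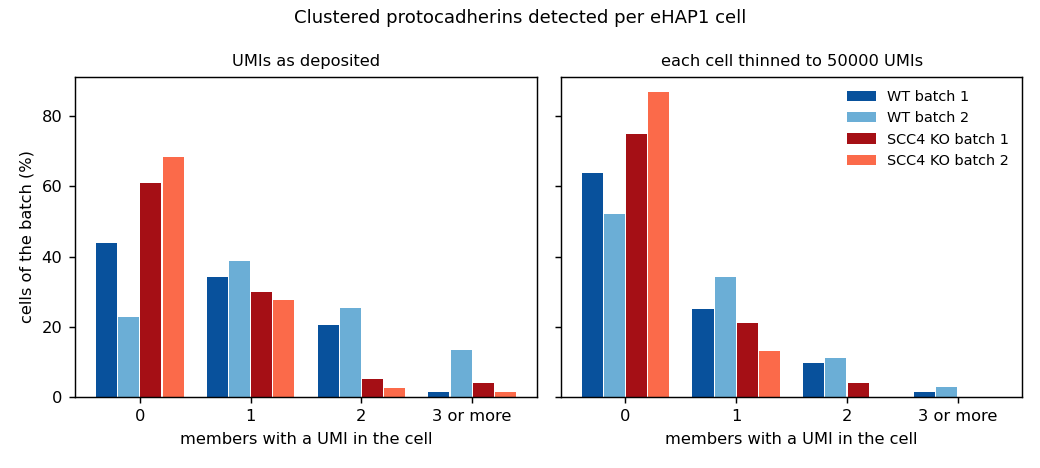
Share of the cells of a batch (y axis, percent) with 0, 1, 2 or at least 3 members with a UMI (x axis), as deposited (left) and with each cell thinned to 50000 UMIs (right), in blue for WT and red for SCC4 KO batches. The bars at 0 members are higher in both SCC4 KO batches than in both WT batches. Members not listed in a genotype add nothing to its bars, which is no measured 0.

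Few members were seen per cell at this depth. The median was 0 members in either genotype at 50000 UMIs, with a mean of 0.566 in WT and 0.211 in SCC4 KO. Unlisted members add nothing here either, so the means are no comparison between genotypes. As deposited, 49 of the 148 WT cells had 0 members, 54 had 1, 34 had 2 and 11 had at least 3, with 6 as the most, and 31 cells held members of 2 clusters and 6 of all 3. Of the 153 SCC4 KO cells, 99 had 0, 44 had 1 and 10 had at least 2. A WT cell held a mean of 1.36 member UMIs, and a member with at least 2 UMIs was found in 26 WT cells and 3 SCC4 KO cells. At this depth a cell with 1 member seen cannot be told from a cell that uses several.

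The frequent members were spread over many cells. PCDHGA10 was seen in 38 WT cells, in 30 of them as 1 UMI and with 2 at most. Its cells were 7 of 73 in batch 1 and 31 of 75 in batch 2, where UMIs scattered evenly over cells would give 6.68 and 30.4. PCDHA5 was seen in 36 WT cells, 17 in batch 1 and 19 in batch 2, where even scatter gives 18.2 and 16.8. PCDHB14 was seen in 30, 4 in batch 1 and 26 in batch 2, with up to 4 UMIs in a cell. Even scatter gives 5.76 and 29.2, so its UMIs lay in somewhat fewer cells. PCDHB1 (10 and 6 cells against 11.9 and 7.59), PCDHB5 (5 and 11 against 5.76 and 12.8) and PCDHB13 (8 and 3 against 9.35 and 4.84) also fell below even scatter. Over both batches, none of PCDHGA10, PCDHA5 and PCDHB14 was held by a few cells. PCDHA5 came without another member in 15 of its 36 cells and PCDHGA10 in 17 of its 38. PCDHB14 was seen with PCDHA5 in 12 cells and with PCDHGA10 in 12, where the products of the shares within batches sum to 7.52 and 11.1, and PCDHA5 with PCDHGA10 in 7, where they sum to 9.48. Deep cells gather several UMIs of any gene, so these counts are a description.

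HEK293T cells gave different answers by assay. In the LAST-seq libraries, 1 UMI of PCDHGA11 and 1 of PCDHGA10 were found among 1424870 and 1509801 UMIs. In the CEL-seq2 libraries of 1554129 and 1455889 UMIs there were 38 and 35 member UMIs, and all 10 cells of each held at least 1 member. As means of the libraries, the members summed to 0.682 CPM by LAST-seq and 24.2 by CEL-seq2, a ratio of 0.0281 (0.00334 to 0.105). The alpha sum was 32 UMIs by CEL-seq2 and 0 by LAST-seq, 10.2-fold lower if 3 UMIs over both libraries stand for the 0. The beta sum, 8 UMIs and 0, was 2.56-fold lower by the same rule. These fold values hold no counting error of the CEL-seq2 UMIs, so they are no lower limits. The gamma sum, 33 and 2, had a ratio of 0.0611 (0.00711 to 0.239). The UMI counts of the assays did not overlap in any cluster, although the 2 beta UMIs of CEL-seq2 library 2 lie under the 3 that a count of 0 allows in 1 library. With 2 libraries an assay no exact permutation test can fall under 0.33.

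**Figure D5:**
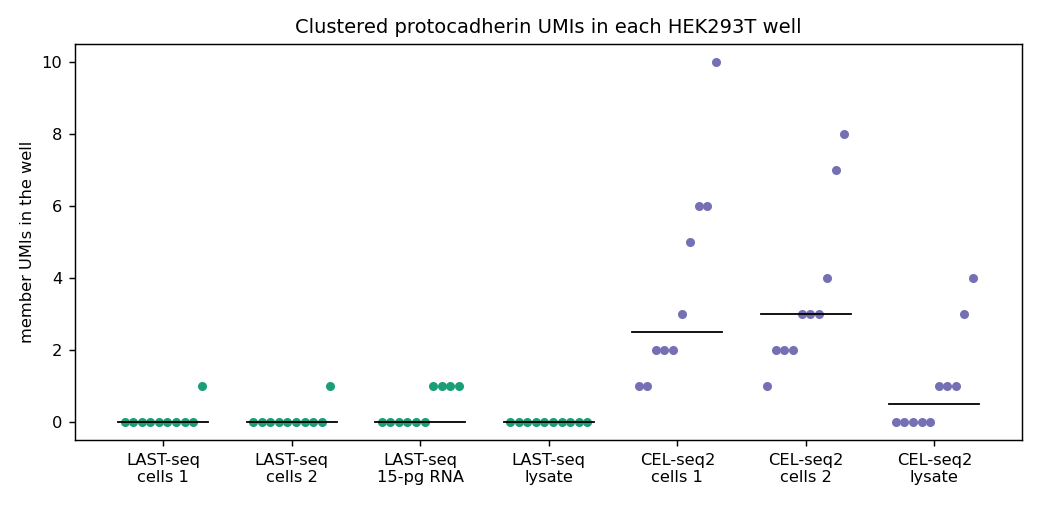
Member UMIs in each of the 10 wells (points) of the 7 HEK293T UMI libraries (x axis), with a line at the median. No LAST-seq well exceeds 1 member UMI, while the CEL-seq2 single cells reach 10 and 8.

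By CEL-seq2, the leading member differed between the libraries. PCDHA5 had 19 UMIs in library 1, 9 of them in 1 cell, and 6 in library 2. PCDHGA10 had 4 UMIs in library 1 and 22 in library 2, where each of the 10 cells held between 1 and 5. PCDHB1 had 5 and 2 UMIs, PCDHA9 4 and 1, and PCDHGA11 2 and 1. PCDHA3, PCDHA8, PCDHB11, PCDHGA6, PCDHGB5 and PCDHGB6 had UMIs in a single library, none over 2. Other genes with few CEL-seq2 UMIs are given for scale. They were chosen by these UMIs, so lower LAST-seq counts follow in part from the choice. Of the 2319 genes with 20 to 39 UMIs in the CEL-seq2 single cells, 14.2% had 0 or 1 UMI in LAST-seq, and the median was 15. Among the protein-coding genes of that level the share was 8.40%. PCDHA5 and PCDHGA10, at 0 and 1, were the 2 members at that level. Of the 3028 genes with at least 4 and under 8 UMIs in CEL-seq2, 48.8% had 0 UMIs in LAST-seq and 62.9% had 0 or 1. Among the protein-coding genes of this lower level, 54.6% had 0 or 1. PCDHA9 and PCDHB1, the members at this level, had 0. The CEL-seq2 lysate held 10 member UMIs and the LAST-seq lysate 0, and the LAST-seq total RNA 4, each in a well of its own (PCDHGA11 2, PCDHA9 1 and PCDHB11 1).

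By LAST-seq alone, HEK293T was compared with WT eHAP1 cells. The beta sum was 0 UMIs in HEK293T against 5.16 and 5.77 CPM in the WT batches, and the alpha sum was 0 against 3.12 and 1.71. With 3 UMIs over the HEK293T libraries in place of the 0, beta was 5.35-fold and alpha 2.36-fold lower. These fold values hold no counting error of the WT UMIs, so they are no lower limits. The gamma sum was 0.682 against 2.24 CPM as means, a ratio of 0.305 (0.0359 to 1.16), not distinguishable at this depth. Cell line and library preparation cannot be told apart here.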

How the data were processed

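The authors deposited UMI counts per gene and well (read counts for SMART-seq and some libraries) as whole-number counts, made with bcl2fastq 2.20 (per the labels), alignment to GRCh38 with GENCODE release 33, exon counting and subsampling by zUMIs and collapse of UMIs by identity. Spike-in rows (0.0815% to 4.92% of HEK293T tables, none in eHAP1) were left out of library sizes. Genes were named and exons taken from GENCODE release 44 on GRCh38, which held 99.6% to 99.8% of the identifiers. UMIs were summed over cells per genotype and batch and divided by the total (CPM). Python 3.11.15 (numpy 2.4.6, scipy 1.17.1, pandas 2.3.3) and, for edgeR 4.0.16 and DESeq2 1.42.0, R 4.3.3 were used after tests on simulated data. Cells were thinned without replacement to 50000 or 20000 UMIs. Where a group had 0 UMIs, 3 UMIs over the group stood for the 0. The ratio so formed, called the bound, holds no counting error of the other group. Samples were grouped by their labels. Named are members called, the 10 highest in eHAP1 and in HEK293T and, as lists, regulators, other protocadherins, neighbours and pseudogenes. Members and lists were chosen with earlier results of these data known. BASiCS, the test of the study, was not used here, and 1 marker gene is not reported here.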

Additional observations from a re-analysis of the deposited data

Results flagged for a closer look

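SMART-seq reads of HEK293T, which no comparison above uses, held 3 signals above the limit that a count of 0 allows. PCDHGC4, at 0 in every UMI table, had 23 reads in 1 of the 6 single cells and 10 reads in 1 well of lysate replicate 2. Both values come from a pair of near-identical wells. For every one of the 6 single cells, the lysate table held a well that differed by no more than sampling noise, with the squared difference of reads over their sum averaging 0.940 to 1 over genes with at least 20 reads, against at least 32.8 for the next well. The wells with 23 and 10 reads are such a pair, so they were counted as 1 sample. PCDHGA11 had 30 reads in 1 other well of lysate replicate 2. Reads of SMART-seq are not single molecules, and how many molecules these reads stand for was not tested.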

How the results depend on the processing

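No member was called either under other scalings, 1 UMI added, no filter, a cell minimum and equal weights of cells, and under edgeR with the batch as a replicate block (0), edgeR without it (0) and DESeq2 (0). With a mean of 1 UMI per cell required, 0 members were left to test. Batch 1 or 2 alone called 1 to 2 of 3, next to 24.2% and 23.3% of all genes. Counting unlisted members as 0, an alternative chosen after seeing the data, called 1 of 4 (PCDHB14; 11.2% of all genes) with the filter and 11 of 15 without (28.2% of all genes). Those 11 are the members listed in 1 genotype alone, 5 in WT (called lower) and 6 in SCC4 KO (called higher). The 0 fixed their calls in advance, so they are no result about the members. The ratio of SCC4 KO to WT became 1.36 for alpha without PCDHA5, 0.494 for beta without PCDHB14, 0.569 for beta over members listed in both tables (chosen after seeing the data), and 3.26 for gamma without PCDHGA10. By single batches it ran from 0.237 to 1.40 for gamma, from 0.251 to 0.797 for alpha and from 0.223 to 0.452 for beta. With 1 UMI per cell required, 0 members were on in eHAP1 and LAST-seq libraries and in CEL-seq2 lysate and 1 in each CEL-seq2 single-cell library. With 0.05 UMI, 3 were on in SCC4 KO. By single batches, 3 to 5 were on in WT and 0 to 1 in SCC4 KO. Thinning to 50000 and 20000 UMIs moved the share of cells with a member to 42.1% and 20.4% in WT, 19.1% and 9.15% in SCC4 KO, 70% and 40% in CEL-seq2 library 1, 60% and 30% in library 2 and 0% in both LAST-seq libraries of HEK293T. The median of members per WT cell was 1 as deposited. For LAST-seq against CEL-seq2 without 1 library, the bound ran from 0.0662 to 0.201 for alpha and from 0.265 to 0.804 for beta. The gamma ratio ran from 0.0397 to 0.133. For alpha without PCDHA5 the bound was 0.445. In reads, the bounds were 0.0386 for alpha and 0.154 for beta. For HEK293T against WT eHAP1 without 1 library or batch, the bound ran from 0.328 to 0.872 for alpha (0.823 without HEK293T library 1). For beta it ran from 0.177 to 0.385 (0.364), and the gamma ratio from 0.210 to 0.559. Without the highest member the bound was 0.288 for beta and the ratio 1.99 for gamma, from 2 HEK293T UMIs. Without PCDHB1 (LAST-seq against CEL-seq2) and without PCDHA5 (HEK293T against eHAP1) no ratio could be given. The cause of the changes was not tested, and depth limits all of them.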

Other observations

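Among the regulators of the clusters, several genes differed less than 2-fold between genotypes, in the same direction in both batches, which were not read as independent. DNMT3A, a DNA methyltransferase, had 298 and 295 CPM in WT and 514 and 512 in SCC4 KO. PDS5A, a cohesin regulator, had 114 and 118 in WT and 60.2 and 60.5 in SCC4 KO, and the cohesin subunits SMC3 (63.6 and 63.3 against 47.9 and 43.3) and RAD21 (305 and 310 against 264 and 263) were also lower. The cohesin subunit STAG2 kept to between 316 and 321 in all batches. RAD21 differed by a log2 of -0.21 and -0.24. For the 2337 genes with at least 1000 UMIs in both genotypes, the median absolute log2 difference between genotypes was 0.252. NIPBL, the partner of SCC4, had 30.4 and 39.8 in WT and 36.7 and 29.6 in SCC4 KO, which overlap. Of the protocadherins outside the clusters, PCDH17 differed more between batches than between genotypes, with 7.73 and 0.325 in WT and 13.1 and 1.11 in SCC4 KO.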
